A study of Rattus norvegicus with 48 samples.

Results

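Strain FL is a rat strain whose kidneys were compared after 7 and 10 days of indole-3-carbinol with kidneys of the same strain given the carrier. It supplied 12 of the 48 arrays of the series, 4 at each time, chosen by the strain and day in the sample titles. Treated FL males were gavaged with indole-3-carbinol at 100 mg/kg/day, and day 0 FL males with vegetable oil. The labels give an age of 12 weeks in one field and 12 to 14 weeks in another, and groups of 8 rats. The 4 arrays of a group are described as biological replicates. The labels do not say if several rats were pooled on an array, and p-values here reflect spread among arrays. The same 3 groups exist for strains F, L and LF (12 arrays each). The labels do not expand the strain names. Beyond what the labels say, every strain is known to have carried a mouse renin gene (Ren2) under the Cyp1a1 promoter, and FL and LF to be congenic strains made by exchanging a chromosome segment between F and L. No group received the carrier for 7 or 10 days, so the compound, the days of gavage and the day of collection cannot be told apart.

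Indole-3-carbinol is a plant compound whose acid products activate the aryl hydrocarbon receptor, a ligand-bound transcription factor. The receptor induces Cyp1a1, a cytochrome P450 that oxidises aromatic compounds. In rats with renin under the Cyp1a1 promoter the same step switches on renin, which cleaves angiotensinogen and raises blood pressure, and the kidney is an organ in which hypertension does damage.

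Values are log2 intensities of genes, each summarised over the probe sets (groups of probes, mostly within an exon) that carry its symbol, and a difference of 1 is a 2-fold change. The FL arrays had medians of 6.03 to 6.50, against 6.03 to 6.61 over the series, and the number of arrays limits the precision. Day 10 replicate 4 had the lowest median of the series (6.03). Kidney markers were high in all 12 FL arrays. Umod, the loop of Henle protein uromodulin, averaged 12.82 ± 0.09, 12.73 ± 0.11 and 12.73 ± 0.19 at days 0, 7 and 10, and Slc34a1, the proximal tubule phosphate carrier, 11.81 ± 0.08, 11.79 ± 0.07 and 11.78 ± 0.13 (SD, n = 4 arrays each). The adrenal enzyme gene Cyp11b1 lay between 2.18 and 2.75. A gene is called below when its limma adjusted p is under 0.05 over all 7997 genes.

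Treated FL kidneys differed from day 0 kidneys in few genes. For the mean of both treated days limma called 12 genes (0.15% of those tested), 3 higher and 9 lower. Day 7 alone gave 12 (0.15%), 2 higher and 10 lower, and day 10 alone gave 2 (0.025%), Dnajb12 higher and Nupr1 lower. No gene was called between day 10 and day 7 by limma, where 481 had an unadjusted p under 0.05 and the smallest adjusted p was 0.362. Without day 10 replicate 4, the array of lowest median, 1668 had an unadjusted limma p under 0.05 there. The smallest adjusted p was then 0.0793. Without day 10 replicate 1 limma called 4 genes between the days, with a smallest adjusted p of 0.000505. With the replicate number as a block the calls were 13 for the mean, 19 at day 7, 4 at day 10 and 1 between the days. After quantile normalization the mean gave 18 calls, 7 higher and 11 lower, and day 10 gave 8, 6 higher and 2 lower. When the spread was estimated from the compared groups alone, limma called 2 genes for the mean (Dnajb12, adjusted p = 0.0294, and Nupr1, 0.000508), 2 at day 7 (Nupr1, 0.00182, and Dbp, 0.00523) and 1 at day 10 (Cyp1a1, 0.0481).

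A group of day 0 arrays stood apart for some of these genes. Replicates 1, 2 and 3 of FL day 0 lay outside the range of all 36 arrays of the other strains for Dnajb12, Nupr1, Asns and Atf5. These genes were picked from those called above, and the share of all genes for which the 3 arrays lay outside that range was not counted. Replicate 4 of FL day 0 lay inside that range for the last 3 of these genes and much nearer to it for Dnajb12. Without replicates 1 to 3, a setting chosen after the values were seen that leaves a single day 0 array assumed to vary like the other groups, limma called 0 genes in the mean, at day 7 and at day 10. With 1 array left at day 0 that count does not show which genes depend on the other 3, so the size of the difference against replicate 4 alone is given beside each called gene. It was over 1.5 times smaller for 5 of the 12 genes called for the mean (Asns, Atf5, Dnajb12, Odc1 and P2rx4), for 5 of the 12 at day 7 (Asns, Dnajb12, P2rx4, P2rx7 and Retsat) and for both genes at day 10. For the other 7 genes of each set it lay within 1.5 times of the value over all arrays. No sign turned.

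Dnajb12, a membrane-bound co-chaperone of the DnaJ (Hsp40) family that works with Hsp70 in the quality control of membrane proteins at the endoplasmic reticulum, had the largest difference of the genes called. Its log2 level was 4.65, 5.06, 4.79 and 7.40 in day 0 replicates 1 to 4. It was 8.27, 8.11, 7.81 and 7.92 at day 7, and 8.36, 8.30, 8.12 and 7.87 at day 10. Every treated array lay above every day 0 array, as for 0.238% of genes, and the 3 low arrays lay far below replicate 4. The limma difference of the treated mean from day 0 was 2.62 ± 0.23 (SE, adjusted p = 2.95e-10, a 6.15-fold rise), with 2.55 ± 0.27 at day 7 and 2.69 ± 0.27 at day 10. Against day 0 replicate 4 alone it was 0.70 (limma adjusted p = 0.258).

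The level of Dnajb12 in treated FL kidneys was that of the other strains, and FL day 0 was low. In these same-day comparisons limma called 3.4% of genes for treated arrays and 1% for day 0 arrays. Treated FL kidneys differed from treated kidneys of the other strains by 0.03 (limma adjusted p = 0.938), whereas FL day 0 kidneys differed from the other day 0 kidneys by -2.61 (adjusted p = 2.61e-11). The 36 arrays of F, L and LF lay between 7.86 and 8.27. The fall was seen along the gene: in each of day 0 replicates 1 to 3, 20 of the 23 probe sets lay below all 44 arrays other than those of FL day 0, with a median difference from treated FL arrays of -3.26, -3.07 and -3.32. In replicate 4 this held for 11 of 23 probe sets, and the median difference was -0.77. Among 15 measured heat shock and chaperone genes no other was called, and their median difference for the mean was 0.00. The cause of the low arrays was not tested.

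Ddit4 (REDD1), a stress-induced inhibitor of mTORC1 signalling, is the next protein-coding gene to Dnajb12 on chromosome 20 and also rose. Its levels were 6.89, 6.28, 6.56 and 6.86 at day 0, then 7.27, 7.42, 7.33 and 7.39 at day 7 and 7.38, 7.91, 8.03 and 7.12 at day 10. All treated arrays were above all day 0 arrays, as for 0.238% of genes. The limma difference was 0.83 ± 0.18 for the mean (adjusted p = 0.037). It kept the call in 3 of 12 fits that left out an array, and the highest adjusted p was 0.421, without day 0 replicate 2. The difference was 0.62 against day 0 replicate 4 alone. Over all arrays the day 10 difference was 0.96, not called. It passed without day 10 replicate 1 (1.04, limma adjusted p = 0.046) or replicate 4 (1.12, adjusted p = 0.0288). It also passed after quantile normalization (0.94, 0.022), with the mean of probe sets (1.02, 0.0448) and without the dimmest genes (0.96, 0.0496). All FL arrays but day 10 replicates 2 and 3 lay within the range of the other strains (5.69 to 7.82). Of the other measured neighbours, the prolyl hydroxylase gene P4ha1 differed by -0.01, Oit3 by 0.00 and Ascc1, a subunit of a transcription coactivator, by 0.21 (limma adjusted p = 1 each).

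**Figure D1:**
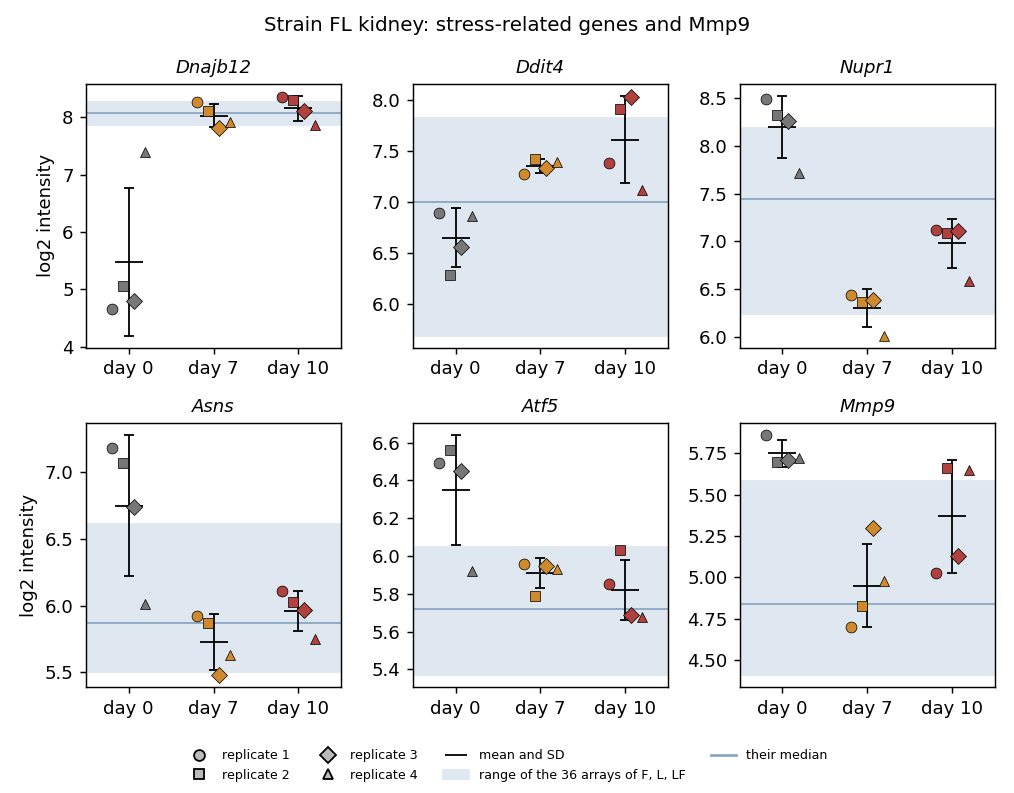
Log2 intensity of 6 genes called in strain FL, by day. Points are arrays with a symbol for each replicate number, bars the mean and SD of 4 arrays, the band the range of the 36 arrays of F, L and LF and the blue line their median. Day 0 replicates 1 to 3 lie outside the band for Dnajb12, Nupr1, Asns and Atf5, and replicate 4 lies inside it for the last 3.

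The integrated stress response slows translation while the transcription factor ATF4 switches on genes for amino acid supply and stress survival. Among its 11 measured genes, Asns and Atf5 fell and Ddit4 rose for the mean of both days, and only Asns was called at day 7. In each of these comparisons 0.15% of all genes were called. The median difference over the list was -0.09 for the mean, against -0.01 over all genes. The transcription factor genes Atf4 (-0.06 ± 0.14) and Ddit3 (0.01 ± 0.14), the pseudokinase Trib3 (-0.09 ± 0.13) and the serine synthesis enzyme Phgdh (0.01 ± 0.12) were not called. Psat1, another enzyme of serine synthesis, differed by -0.34 ± 0.15 at day 7 and was not called by limma (adjusted p = 0.784). Its day 7 arrays all lay below every day 0 array, as for 2.28% of all genes.

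Nupr1, a small stress-induced chromatin protein that ATF4 is known to switch on, was outside that list and had the largest fall for the mean. Its day 0 levels were 8.49, 8.33, 8.26 and 7.72. They were 6.44, 6.36, 6.38 and 6.01 at day 7, and 7.12, 7.09, 7.11 and 6.58 at day 10. Every treated array lay below every day 0 array, as for 0.15% of genes. Every day 10 array lay above every day 7 array, and the share of all genes for which this held was not counted. The limma difference was -1.56 ± 0.20 for the mean (adjusted p = 5.27e-06, 2.96-fold lower), -1.90 ± 0.23 at day 7 (adjusted p = 1.41e-06), and at day 10 it was -1.23 ± 0.23 (adjusted p = 0.0179). Day 10 minus day 7 was 0.68 ± 0.23, which did not pass (limma adjusted p = 0.634).

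The Nupr1 fall was called for the mean in all 12 fits that left out an array, and at day 10 in 8 of 12 (highest limma adjusted p 0.134, without day 0 replicate 2). Against day 0 replicate 4 alone the difference was -1.08 for the mean, -1.42 at day 7 and -0.75 at day 10 (limma adjusted p = 0.999, 0.274 and 1). Unlike Dnajb12, Nupr1 also set treated FL kidneys apart from treated kidneys of the other strains, by -0.63 (adjusted p = 0.00236), while FL day 0 differed from the other day 0 groups by 0.57 (adjusted p = 0.174).

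Asns, the enzyme that makes asparagine, stood at 7.18, 7.07, 6.74 and 6.01 at day 0. Treated arrays held 5.92, 5.87, 5.48 and 5.63 at day 7 and 6.11, 6.03, 5.97 and 5.75 at day 10. Day 7 lay below day 0, as for 2.28% of genes, and day 10 replicates 1 and 2 lay just above day 0 replicate 4. The limma difference was -0.91 ± 0.15 for the mean (adjusted p = 0.00129) and -1.02 ± 0.17 at day 7 (adjusted p = 0.00115). Against day 0 replicate 4 alone the mean difference was -0.17 and the day 7 difference -0.29 (adjusted p = 0.999 for both). Over all arrays the day 10 difference was -0.79, not called. It passed without day 0 replicate 4 (-1.03, limma adjusted p = 0.000526), with the replicate block (-0.79, 0.0461) and after quantile normalization (-0.81, 0.022). FL day 0 exceeded the day 0 kidneys of the other strains by 0.97 (adjusted p = 2.29e-05), and treated FL kidneys differed from treated kidneys of the other strains by -0.09 (adjusted p = 0.708).

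Atf5, a bZIP transcription factor of the same response, had day 0 levels of 6.49, 6.56, 6.45 and 5.92. They were 5.96, 5.79, 5.95 and 5.93 at day 7, and 5.85, 6.03, 5.69 and 5.68 at day 10. Day 0 replicate 4 lay among the treated arrays. The mean difference was -0.49 ± 0.11 (limma adjusted p = 0.0344), or -0.06 against replicate 4 alone, and it was not called after quantile normalization (adjusted p = 0.129). It was called in 4 of 12 fits that left out an array (highest adjusted p 0.392, without day 0 replicate 2). Without day 0 replicate 4 the day 10 difference passed as well (-0.68, limma adjusted p = 0.00281).

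Promoters of the 2 genes with the largest falls of this kind are printed because ATF4 dimers are known to bind the composite site TGATGNAA. They come from the RefSeq annotation of GRCr8 and cover 250 bases before to 50 bases after the gene start, 5′ to 3′ on the gene's strand. Nupr1 lies at chr1:190645852-190646151 and Asns at chr4:36769366-36769665, both on the minus strand. Capitals mark the composite site, searched on both strands (TGATGNAA or TTNCATCA).
Nupr1: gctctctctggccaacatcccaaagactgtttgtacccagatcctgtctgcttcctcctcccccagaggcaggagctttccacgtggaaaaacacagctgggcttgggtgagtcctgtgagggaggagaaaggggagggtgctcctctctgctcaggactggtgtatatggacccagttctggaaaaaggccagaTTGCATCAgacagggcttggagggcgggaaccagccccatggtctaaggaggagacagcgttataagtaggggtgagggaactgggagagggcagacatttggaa
Asns: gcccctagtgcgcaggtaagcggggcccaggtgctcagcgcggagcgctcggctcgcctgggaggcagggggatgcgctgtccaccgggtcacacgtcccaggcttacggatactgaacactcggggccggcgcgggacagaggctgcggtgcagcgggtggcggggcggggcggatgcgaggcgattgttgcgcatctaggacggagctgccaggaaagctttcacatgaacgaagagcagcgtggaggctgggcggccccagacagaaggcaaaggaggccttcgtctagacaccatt
Nupr1 held 1 match, which starts 55 bases before the gene start, and the Asns and Atf5 windows held no match. The motif occurred in 1332 of 33469 rat promoters of this length (3.98%). The Nupr1 window also holds the letters CACGTG, which share no base with the composite site. A match describes the letters only.

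Circadian clock genes form a loop in which BMAL1 and CLOCK activate genes of their own repressors and of output factors such as Dbp. Of 12 measured clock genes limma called 2 for the mean of both days (Dbp and Per3) and 3 at day 7 (Dbp, Per3 and Tef), all lower, and 0 at day 10. Over all genes 0.15%, 0.15% and 0.025% were called. The list median was -0.44 at day 7 and 0.00 at day 10, against -0.04 and 0.02 over all genes. At day 7 every array lay below every day 0 array for Per3, Nr1d1, Dbp, Tef and Bhlhe41, as for 2.28% of all genes tested. The labels give a 12 h light and dark cycle and no hour of collection.

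Dbp, a PAR bZIP factor that drives clock-controlled metabolic genes, had levels of 8.60, 8.69, 8.71 and 9.02 at day 0. At day 7 it was 7.38, 7.75, 7.58 and 7.45, and at day 10 it was 7.63, 8.76, 7.76 and 8.02. Day 7 was below all of day 0, and day 10 replicate 2 was back among the day 0 values. The limma difference was -1.21 ± 0.21 at day 7 (adjusted p = 0.00177, 2.32-fold lower) and -0.96 ± 0.19 for the mean (adjusted p = 0.0107). At day 10 it was -0.71 ± 0.21 (adjusted p = 0.498). The mean call was lost without day 0 replicate 4 (adjusted p = 0.0958).

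Per3, a period-family gene of the repressor arm, stood at 6.22, 6.16, 6.20 and 6.42 at day 0. It was 5.50, 5.72, 5.18 and 5.31 at day 7 and 5.53, 6.36, 6.0 and 5.69 at day 10. Its difference was -0.82 ± 0.14 at day 7 (limma adjusted p = 0.00115) and -0.59 ± 0.12 for the mean (adjusted p = 0.0211). The mean was called in 7 of 12 fits that left out an array, and reached its highest adjusted p of 0.174 without day 0 replicate 4. Tef, the PAR bZIP relative of Dbp, had 8.66, 8.40, 8.10 and 8.40 at day 0 and 7.70, 7.85, 7.15 and 7.62 at day 7. At day 10 it had 7.87, 8.74, 7.89 and 7.63. It fell by 0.81 at day 7 (limma adjusted p = 0.013), called in 9 of 12 such fits with a highest adjusted p of 0.214 without day 7 replicate 3.

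Against day 0 replicate 4 alone no clock gene was called, and the differences were no smaller than over all day 0 arrays. For the mean they were -1.23 for Dbp and -0.76 for Per3 (limma adjusted p = 0.628 and 0.7), and at day 7 they were -1.48 for Dbp, -0.99 for Per3 and -0.82 for Tef (adjusted p = 0.268, 0.268 and 0.869). Replicate 4 held the highest day 0 level of Dbp and of Per3. Among the rest of the loop, the repressor Nr1d1 differed by -0.51 ± 0.25 at day 7 and Cry2 by -0.42 ± 0.12, while Bmal1 differed by 0.57 ± 0.30 and Nfil3, a repressor that opposes Dbp, by 0.65 ± 0.26. None of these 4 passed (adjusted p = 0.802, 0.336, 0.804 and 0.729). Day 10 replicate 2 held the highest day 10 level of Dbp, Per3, Tef, Nr1d1, Cry2 and Per2.

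The promoters of Dbp and Tef are shown because the activator pair is known to bind E-boxes (CACGTG), which capitals mark. They are the same kind of RefSeq window, at chr1:105312006-105312305 and chr7:115206577-115206876 on the plus strand.
Dbp: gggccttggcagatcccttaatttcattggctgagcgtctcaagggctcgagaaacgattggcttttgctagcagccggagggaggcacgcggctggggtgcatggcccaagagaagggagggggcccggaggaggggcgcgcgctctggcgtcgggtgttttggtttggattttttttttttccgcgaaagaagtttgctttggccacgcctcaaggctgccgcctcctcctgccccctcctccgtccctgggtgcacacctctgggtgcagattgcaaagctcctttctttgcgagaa
Tef: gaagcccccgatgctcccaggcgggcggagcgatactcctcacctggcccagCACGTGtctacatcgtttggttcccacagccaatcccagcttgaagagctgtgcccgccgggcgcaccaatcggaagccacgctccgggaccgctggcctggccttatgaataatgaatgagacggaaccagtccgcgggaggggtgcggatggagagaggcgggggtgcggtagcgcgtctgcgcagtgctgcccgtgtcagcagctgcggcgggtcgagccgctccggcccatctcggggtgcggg
Tef held 1 E-box, which starts 198 bases before the gene start, and the Dbp and Per3 windows held none. The E-box occurred in 2148 of 33469 promoters (6.42%).

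**Figure D2:**
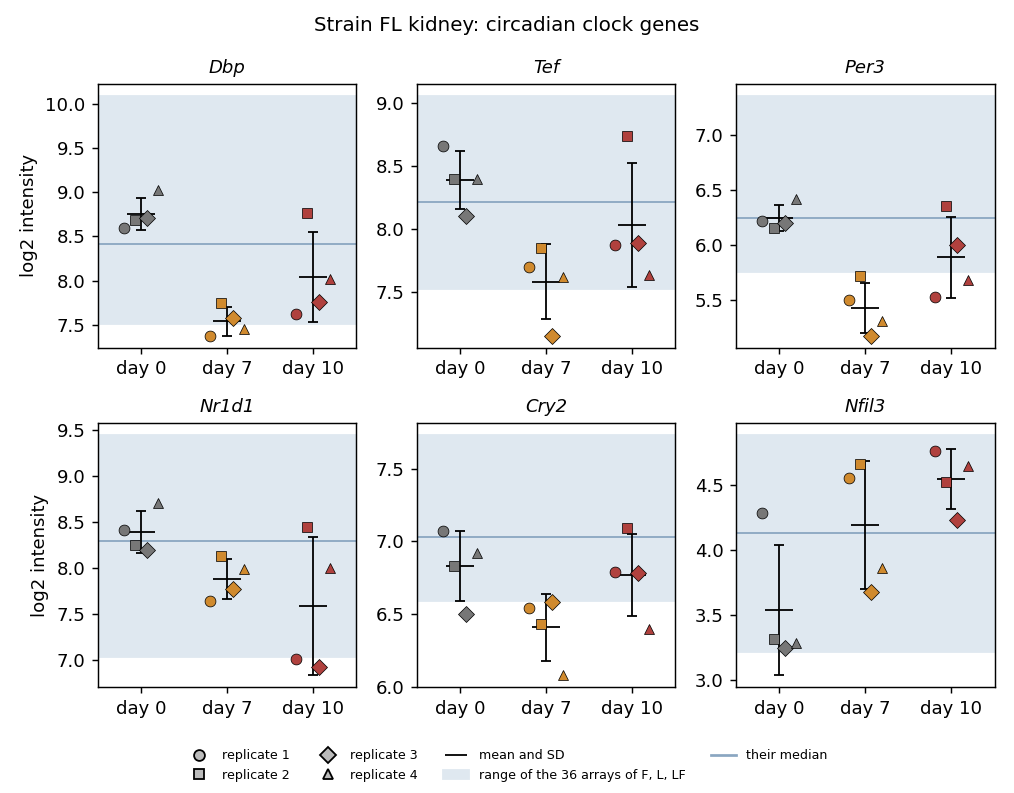
Log2 intensity of 6 circadian clock genes in strain FL, by day. Points are arrays with a symbol for each replicate number, bars the mean and SD of 4 arrays, and the band the range of the 36 arrays of F, L and LF with their median. Day 7 arrays lie below day 0 arrays for Dbp, Tef, Per3 and Nr1d1, and day 10 replicate 2 is near the day 0 level.

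Mmp9 and Areg fell, and both were high at FL day 0, by 0.81 and 0.69 over the other strains' day 0 kidneys (limma adjusted p = 4.47e-05 and 0.00174). Mmp9, the matrix protease gelatinase B, was 5.86, 5.70, 5.71 and 5.72 at day 0, above every array of the other strains (highest 5.58). It was 4.70, 4.83, 5.30 and 4.98 at day 7 and 5.03, 5.66, 5.13 and 5.65 at day 10. No treated array reached a day 0 array, as for 0.15% of genes, and day 10 replicates 2 and 4 came within a narrow margin. The limma difference was -0.79 ± 0.15 at day 7 (adjusted p = 0.00605) and -0.59 ± 0.13 for the mean (adjusted p = 0.0498). After quantile normalization these did not pass (adjusted p = 0.0827 and 0.14). The mean was called in 3 of 12 fits that left out an array, with a highest adjusted p of 0.314 without day 0 replicate 1. It was -0.76 at day 7 and -0.56 for the mean against day 0 replicate 4 alone. Neutrophils store Mmp9, and the other measured neutrophil genes, S100a8, S100a9, Cxcr2 and Mmp8, differed by 0.03 to 0.15 for the mean with none called. Mean FL levels in this list, Mmp9 included, were 2 to 5.36, below the array medians, so a fall in the other genes might not be seen. Whether neutrophil content changed was not tested.

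Areg, the EGF receptor ligand amphiregulin, had 6.92, 6.48, 6.16 and 6.44 at day 0. It had 6.36, 5.73, 5.71 and 5.87 at day 7 and 5.28, 6.12, 5.93 and 6.12 at day 10. Day 10 lay below day 0, as for 0.55% of genes, and day 7 overlapped it through replicate 1. The mean difference of -0.61 ± 0.14 was at the threshold (limma adjusted p = 0.0498), was called in 4 of 12 fits that left out an array (highest adjusted p 0.818, without day 0 replicate 1) and did not pass after quantile normalization (0.176). It was -0.56 against day 0 replicate 4 alone. Areg was the only growth factor gene called among 16 measured, whose median difference was -0.06.

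Odc1, ornithine decarboxylase, the rate-limiting enzyme of polyamine synthesis, had 10.61, 10.62, 10.67 and 10.36 at day 0. It had 10.49, 9.97, 10.12 and 9.82 at day 7 and 9.92, 10.30, 10.30 and 10.03 at day 10. The treated arrays overlapped day 0 only through day 7 replicate 1. The mean difference was -0.45 ± 0.10 (limma adjusted p = 0.0468), or -0.24 against day 0 replicate 4 alone, and was called in 4 of 12 fits that left out an array (highest adjusted p 0.315, without day 0 replicate 2).

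Tagln, the actin-binding protein transgelin of smooth muscle, was the remaining gene that rose. It was 7.33, 7.26, 7.01 and 7.25 at day 0, then 8.21, 8.04, 8.05 and 7.30 at day 7 and 7.73, 8.00, 8.07 and 7.62 at day 10. Only day 7 replicate 4 overlapped day 0. The difference was 0.67 ± 0.13 for the mean (limma adjusted p = 0.0107) and 0.69 ± 0.15 at day 7 (adjusted p = 0.0284), and against day 0 replicate 4 alone it was 0.63 for the mean and 0.65 at day 7. The mean call was lost without day 0 replicate 3 (adjusted p = 0.08), and day 7 was called in 6 of 12 such fits, with the highest adjusted p of 0.226 without day 7 replicate 1. Among 9 measured genes of smooth muscle, mesangium and pericytes no other was called. All 9 were positive for the mean, and the list median was 0.08, against -0.01 over all genes. The contractile genes Cnn1 and Des differed by 0.04 and 0.09 and the pericyte gene Pdgfrb by 0.04. In whole kidney, more cells of a type and more RNA per cell cannot be told apart.

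Septin4, a GTP-binding cytoskeletal protein, and Retsat, an enzyme that saturates retinol, were called at day 7 alone. Septin4 had 8.95, 9.02, 8.77 and 9.23 at day 0, 8.05, 8.37, 8.02 and 7.78 at day 7 and 8.45, 8.95, 8.61 and 8.56 at day 10. Day 7 lay below day 0 throughout, as for 2.28% of genes, and day 10 overlapped it. The day 7 difference was -0.94 ± 0.18 (limma adjusted p = 0.00602), and the call was lost without day 7 replicate 4 (adjusted p = 0.0562). It was -1.18 against day 0 replicate 4 alone. The day 10 difference was -0.35 ± 0.18 (adjusted p = 1).

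The remaining calls, P2rx4, P2rx7 and Retsat, belong to genes that differ between strains F and L. In 34 genes every F array was separated from every L array, with means at least 0.8 apart, and 32 of these had 3 or more probe sets. Each FL array was placed between the L mean (0%) and the F mean (100%), and an array under 50% was counted on the L side. For 23 genes at least 10 of the 12 FL arrays were on the F side. For Ace, the angiotensin-converting enzyme gene on chromosome 10, 11 of 12 FL arrays were on the L side. The other 8 genes had 3 to 9 FL arrays on the L side.

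P2rx4 and P2rx7 are neighbouring genes on chromosome 12 for ATP-gated cation channels. P2rx4 was 8.78, 8.62, 8.51 and 7.89 at day 0, 7.16, 7.24, 7.28 and 7.92 at day 7, and 8.29, 8.45, 7.40 and 7.77 at day 10. Its group means were 8.47 to 8.68 in F, 7.26 to 7.37 in L and 7.31 to 7.35 in LF. FL arrays thus took levels near F in day 0 replicates 1 to 3, near L in day 7 replicates 1 to 3, and on either side at day 10. The day 7 difference was -1.05 ± 0.17 (limma adjusted p = 0.00113) and that of the mean -0.76 ± 0.15 (adjusted p = 0.0135), and against day 0 replicate 4 alone these were -0.49 and -0.20. The mean was called in 9 of 12 fits that left out an array (highest adjusted p 0.197, without day 0 replicate 1).

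P2rx7 had 5.97, 5.05, 5.13 and 4.94 at day 0, 4.61, 4.27, 4.22 and 4.71 at day 7, and 4.98, 4.85, 4.25 and 4.82 at day 10. Its day 7 difference was -0.82 ± 0.19 (limma adjusted p = 0.0476), called in 5 of 12 fits that left out an array and with an adjusted p of 0.626 without day 0 replicate 1. It was -0.49 against day 0 replicate 4 alone. The next measured genes on either side, Camkk2 and Ift81, differed by -0.22 and -0.19 for the mean and were not called. Retsat, on chromosome 4, was 11.58, 11.46, 11.04 and 11.05 at day 0. It was 10.70, 10.65, 10.65 and 10.48 at day 7 and 10.80, 11.49, 11.60 and 11.02 at day 10. Its day 7 difference was -0.66 ± 0.14 (limma adjusted p = 0.013), called in 9 of 12 such fits with 0.172 without day 0 replicate 1, and it was -0.43 against day 0 replicate 4 alone. Its means were 10.80 over F arrays and 11.67 over L arrays.

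Further genes on chromosome 4 split the FL arrays by more. Akr1b8, an aldo-keto reductase, had 6.96, 4.90, 6.40 and 4.41 at day 0, 7.13, 7.63, 6.83 and 7.09 at day 7, and 8.12, 4.78, 5.19 and 4.74 at day 10, between means of 7.56 in F and 5.09 in L. Akr1b10, its relative, was on the F side in the same arrays except day 0 replicate 3, at 44%, and differed by 1.31 ± 0.35 at day 7 (limma adjusted p = 0.215). That difference passed with the replicate block (adjusted p = 0.0343) and without day 0 replicate 1 (1.62, 0.0479), day 10 replicate 1 (0.0151) or day 10 replicate 4 (0.0488). Retsat took the same sides as Akr1b8 in the 4 day 7 arrays and in day 10 replicates 1 to 3, but not in day 0 replicates 1 and 4 or day 10 replicate 4. Gng7 on chromosome 7, Rxrg on chromosome 13 and Gucy1b2 on chromosome 15 had 4, 6 and 5 FL arrays on the L side. For Gucy1b2 those 5 arrays lay at 45% to 49%, next to the threshold. The Rxrg arrays were spread from 16% to 85%, so neither gene set apart a clear F-like and L-like group. Whether the FL arrays carry different F and L alleles at these genes was not tested.

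**Figure D3:**
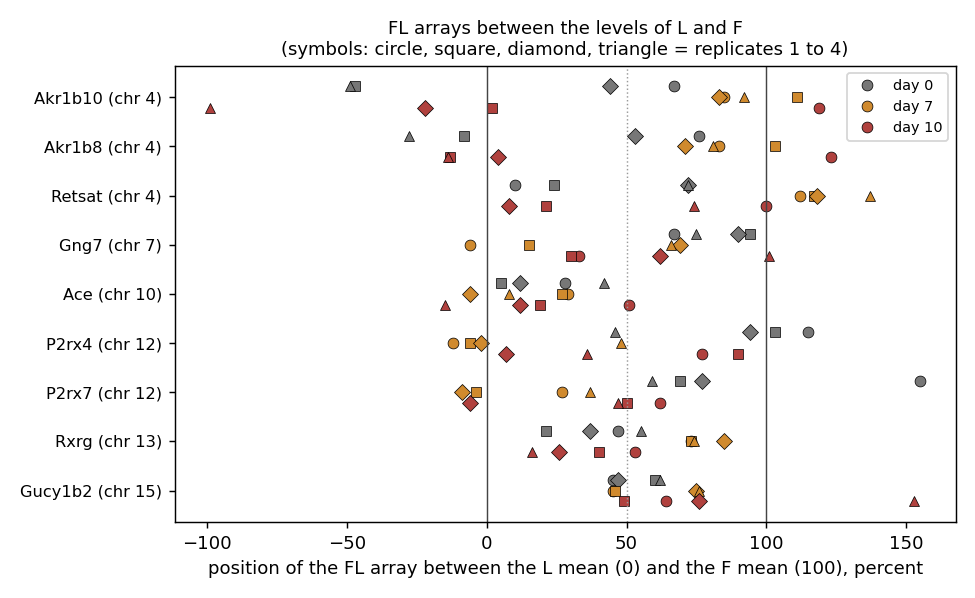
Position of each of the 12 FL arrays between the L mean (0%) and the F mean (100%) for the 8 genes with 3 to 9 FL arrays under 50% and for Ace. Colours are days, symbols replicate numbers, and the dotted line marks 50%. Ace arrays gather toward L, P2rx4 is near F in day 0 replicates 1 to 3 and near L in day 7 replicates 1 to 3, and Akr1b8 and Akr1b10 split within day 0 and day 10.

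Exposure to the compound was read from Cyp1a1, which limma did not call in FL. Its levels were 5.01, 4.79, 4.59 and 4.44 at day 0, 6.30, 5.28, 4.63 and 4.82 at day 7, and 6.81, 6.86, 6.80 and 5.75 at day 10. All day 10 arrays lay above day 0, whereas day 7 replicates 3 and 4 lay among the day 0 values and replicate 1 well above them. By limma, the day 7 difference was 0.55 ± 0.41 (adjusted p = 0.85), and 0.20 without day 7 replicate 1. That of day 10 was 1.85 ± 0.41 (adjusted p = 0.0756). The day 10 difference passed after quantile normalization (1.85, adjusted p = 0.0431), without the dimmest genes (1.85, 0.0496) and without day 10 replicate 4 (2.12, 0.0391). Among 10 measured receptor genes and targets 0 were called, and only Cyp1a1 separated day 10 from day 0, as 1.1% of all genes did upward. The target Cyp1b1 differed by 0.33 ± 0.17 at day 10, Nqo1, a quinone reductase, by 0.58 ± 0.25, and Cyp1a2 by -0.10 ± 0.16.

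Injury genes of the tubule were high in some day 10 arrays and were not called over all arrays. Havcr1, the kidney injury molecule KIM-1, was 4.82, 4.31, 4.52 and 4.87 at day 0, 6.22, 5.31, 4.75 and 5.10 at day 7, and 5.33, 6.15, 8.37 and 6.0 at day 10. Day 10 lay above day 0, as for 1.1% of genes, and replicate 3 was the highest by a wide margin. The day 10 difference was 1.83 ± 0.47 (limma adjusted p = 0.21). It was 1.20 without day 10 replicate 3 (adjusted p = 1), and 2.21 and called without day 10 replicate 1 (adjusted p = 0.0473). Clu, the secreted chaperone clusterin, differed by 0.81 ± 0.22 and Timp1, an inhibitor of matrix proteases, by 0.85 ± 0.20 at day 10 (limma adjusted p = 0.268 and 0.116). Both separated day 10 from day 0, as 1.1% of all genes did upward. Without day 10 replicate 3 the Clu difference was 0.53. Clu alone of the list also lay above day 0 in every day 7 array, as 1.39% of all genes did. Over the 20 measured injury genes limma called 0 at either day, the median difference was -0.03 at day 7 and 0.23 at day 10, and 16 were positive at day 10. Lcn2, the injury marker NGAL, lay between 3.44 and 3.92 in every FL array.

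Hmox1, heme oxygenase 1, had a wide spread at day 10. It held 4.84, 4.81, 4.74 and 4.78 at day 0, 4.90, 5.37, 4.80 and 4.59 at day 7, and 4.45, 5.67, 9.32 and 8.91 at day 10. Replicates 3 and 4 of day 10 were high, replicate 2 was raised and replicate 1 was below day 0. The day 10 difference of 2.30 ± 0.88 was not called (limma adjusted p = 0.945). Slc25a25, a mitochondrial ATP-Mg carrier, was also highest in those arrays, with 6.98, 8.23, 9.47 and 8.77 at day 10 against 7.03 to 7.29 at day 0. The metallothionein Mt1, a metal-binding stress protein, was 10.24, 11.44, 12.57 and 11.82 at day 10, with replicate 3 again highest. Its day 10 difference of 0.93 was not called (limma adjusted p = 0.882), and it was 0.58 without day 10 replicate 3. The fibrinogen chain genes Fga and Fgb differed by 1.11 ± 0.30 and 1.14 ± 0.29 at day 10 (limma adjusted p = 0.271 and 0.21), and replicate 3 held the highest level of both.

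Below the threshold at day 10 the rule on named genes gave Lum, a matrix proteoglycan (0.96 ± 0.21), and Gpx2, a glutathione peroxidase (0.49 ± 0.11), each with limma adjusted p = 0.0756. Gpx2 passed without day 10 replicate 1 (0.58, adjusted p = 0.037), and Lum after quantile normalization (0.94, 0.0431) and with the mean of probe sets (0.92, 0.0448). For the mean it gave Dmbt1 (0.53 ± 0.13, adjusted p = 0.127), an epithelial scavenger receptor, and Tsc22d1 (0.41 ± 0.10, adjusted p = 0.133), which both passed after quantile normalization (0.0282 and 0.0427), Tsc22d1 also without day 10 replicate 1 (0.0467). At day 7 it gave the sodium channel subunit Scn4b (0.47 ± 0.12) and the orexin receptor Hcrtr2 (0.56 ± 0.15), with adjusted p of 0.212 and 0.215. Between day 10 and day 7 the smallest p belonged to Retsat (0.61 ± 0.14), Slc25a25 (1.61 ± 0.38), the kinase Sik1 (0.56 ± 0.13), the cytokine Ltb (-0.57 ± 0.14) and the fat oxidation regulator Ppara (0.60 ± 0.15), all with limma adjusted p = 0.362.

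**Figure D4:**
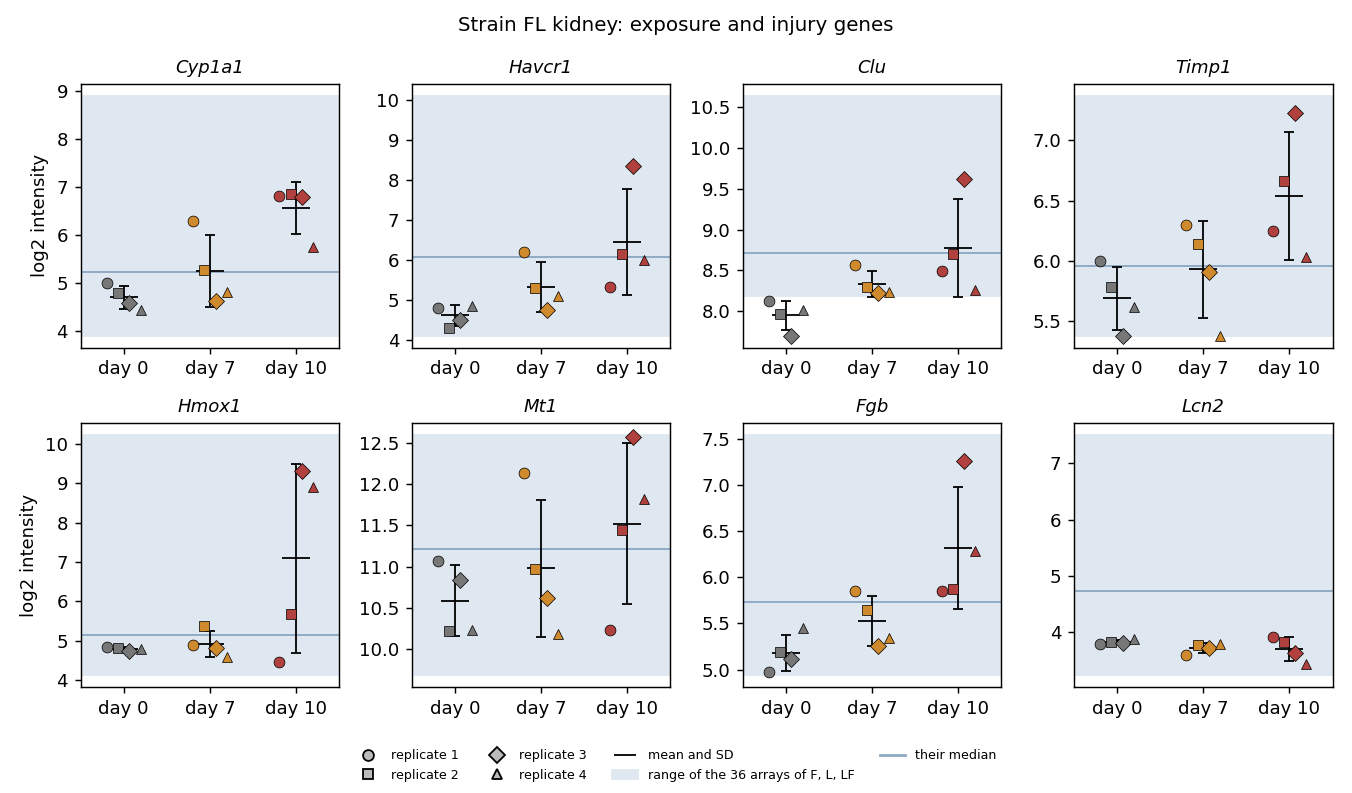
Log2 intensity of Cyp1a1 and 7 injury and acute phase genes in strain FL, by day. Points are arrays with a symbol for each replicate number, bars the mean and SD of 4 arrays, and the band the range of the 36 arrays of F, L and LF with their median. Day 10 replicate 3 is the highest FL array for Havcr1, Clu, Timp1, Hmox1, Mt1 and Fgb, and Lcn2 stays between 3.44 and 3.92.

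The renin-angiotensin genes showed no call among 10 measured. Ace was 6.28, 5.99, 6.08 and 6.47 at day 0, 6.31, 6.27, 5.84 and 6.02 at day 7, and 6.59, 6.17, 6.07 and 5.72 at day 10, a difference of -0.08 ± 0.14 for the mean. Agt, angiotensinogen, also differed by -0.08 ± 0.12 (limma adjusted p = 1 for both). The aminopeptidase Anpep was below day 0 in every treated array, as for 0.15% of all genes, with a difference of -0.27 ± 0.12 (limma adjusted p = 0.954). Renin was not analysed here.

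Nephron segment genes differed little. limma called 0 of the measured genes of proximal tubule (24), loop of Henle (8), distal tubule (13), collecting duct principal cells (11), intercalated cells (8) and podocytes (9). In the loop of Henle list 0 of 8 genes were positive for the mean, with a median of -0.17, and in the principal cell list 1 of 11, with a median of -0.21, against -0.01 over all genes. The water channel Aqp2 differed by -0.35 ± 0.14, the sodium channel subunit Scnn1g by -0.38 ± 0.14, the calcium buffer Calb1 by -0.63 ± 0.21 and the sodium-calcium exchanger Slc8a1 by -0.57 ± 0.22 (limma adjusted p = 0.884, 0.741, 0.563 and 0.844). Among macrophage, lymphocyte, antigen presentation and endothelial genes 0 were called as well, and their medians for the mean were 0.07, 0.06, 0.04 and -0.06. In these lists 11 of 12, 5 of 7, 8 of 15 and 3 of 9 measured genes were positive. The globin genes Hba-a2 and Hbb were above day 0 in every treated array, as for 0.238% of all genes. They differed by 0.36 ± 0.13 and 0.75 ± 0.31 and were not called (limma adjusted p = 0.719 and 0.869). How much blood each sample held was not tested.

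**Figure D5:**
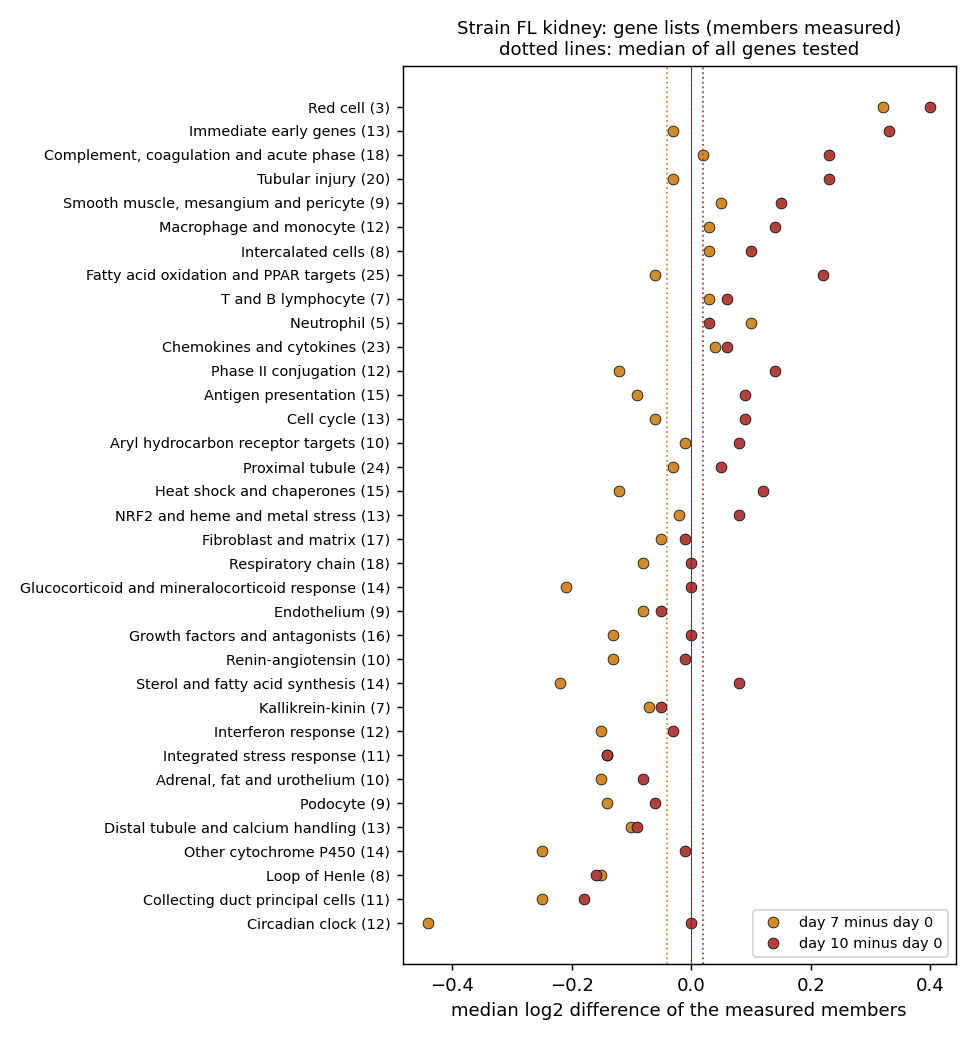
Median log2 difference from day 0 of the measured members of each gene list in strain FL, at day 7 and at day 10, with the number of measured members in brackets. Dotted lines mark the median of all genes (-0.04 at day 7 and 0.02 at day 10). The circadian clock list lies lowest at day 7 (-0.44) and at 0.00 at day 10.

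The response of FL was set against that of each other strain as a difference of differences. FL minus F gave 2 calls for the mean (0.025%), Dnajb12 (2.62 ± 0.33) and Asns (-1.18 ± 0.21, limma adjusted p = 0.00849), FL minus L gave Dnajb12 alone (0.0125%), and FL minus LF gave 9 (0.113%). At days 7 and 10 these were 5 (0.0625%) and 1 (0.0125%) against F, 1 and 1 against L, and 7 (0.0875%) and 3 (0.0375%) against LF. For Dnajb12, Asns and Nupr1 these differences carry the day 0 level of FL, described above. Against day 0 replicate 4 alone the FL minus F values for the mean were 0.69 for Dnajb12 and -0.44 for Asns, neither called. At day 7 Nupr1 fell in FL beyond its change in F (-1.72 ± 0.33, adjusted p = 0.0104), and Per2, the period gene, differed likewise (-1.16 ± 0.20, adjusted p = 0.00372), with -1.24 for Nupr1 and -1.38 for Per2 against day 0 replicate 4 alone (adjusted p = 0.998 and 0.0694). Per2 had means of 6.57 at day 7 and 7.02 at day 0 in FL and of 7.37 and 6.67 in F. The Cyp1a1 response of FL minus that of F was -1.88 ± 0.57 at day 7 and -0.77 ± 0.57 at day 10, and neither passed (limma adjusted p = 0.489 and 0.953).

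Against LF, the responses differed in Lcn2 and Ptprq. Lcn2 averaged 3.83 ± 0.04, 3.72 ± 0.09 and 3.70 ± 0.21 in FL at days 0, 7 and 10, and 4.63 ± 0.34, 6.35 ± 0.63 and 7.19 ± 0.34 in LF (SD, n = 4 arrays each). The difference of the mean responses was -2.26 ± 0.32 (limma adjusted p = 5.35e-05), and -2.31 against FL day 0 replicate 4 alone (adjusted p = 0.135). At day 10 it was -2.69, and -2.74 against that array alone, the 1 difference of responses that limma still called (adjusted p = 0.0295). Ptprq, a receptor tyrosine phosphatase, differed by 1.10 ± 0.18 (adjusted p = 0.00113), or by 1.0 against that array alone. Its means stayed between 3.26 and 3.33 in FL and were 3.80 and 4.22 at days 7 and 10 against 5.18 at day 0 in LF. Lcn2 and Ptprq were both dim in FL at every day, so a further fall in FL might not be seen. Their differences of responses came mostly from the change in LF. Nupr1 differed by -1.42 ± 0.28 (adjusted p = 0.0174), or by -0.94 against that array alone, with LF means of 7.56 and 7.76 at days 7 and 10 against 7.80 at day 0. The Havcr1 response of FL minus that of LF was -2.04 ± 0.66 at day 10 and did not pass (adjusted p = 0.758).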

How the data were processed

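Per the labels' protocols, total kidney RNA was depleted of ribosomal RNA and read on exon arrays. Values deposited by the authors are log2 intensities of probe sets, made with RMA per the submitters' processing notes, which also name limma. Versions, filters and annotation were not given in the sources used here. All 92401 probe sets had values on the 48 arrays. The 85406 with 1 gene symbol in the platform annotation were used, and those with several (1803) or none (5192) were left out. Symbols were updated through the gene annotation of GRCr8, and probe sets were summarised by Tukey median polish into 7997 genes. limma 3.58.1 (R 4.3.3, data.table version 1.17.8) fitted 1 mean for each strain and day over 48 arrays, with eBayes and Benjamini-Hochberg adjustment over all genes in each comparison. Gaussian data were simulated for the FL mean over 7997 genes, with 200 genes changed and 1 SD per gene in all groups. In these, 61% of log2 changes of 0.5 and 96% of log2 changes of 1 were recovered, with 7 false calls. Recovery with fewer changed genes, or with a spread as uneven as at FL day 0, was not tested. Figures were drawn with matplotlib 3.10.9.

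The members and the gene lists were chosen with earlier results of these data known. Genes were named by rule: up to 10 rises and 10 falls that limma called, with at least 3 probe sets and 1 direction in all 4 replicate numbers, filled to 5 by smallest p where fewer passed, 5 by smallest p for other comparisons, fixed genes (Cyp1a1, Agt, Ace, Hmox1, Havcr1, Mt1 and Clu) and members of the lists within their accounts. P2rx4 at day 7, Slc25a25 by array and genes of the strain comparison outside the rule were chosen after their values were seen. Replicate numbers share a start of the array file name in the labels. They were taken as paired in the naming rule and in the replicate block, and the main limma fit was not paired. Deviations correlated at a mean of 0.121 over 12 same-numbered FL pairs and -0.0408 over 36 others. The comparisons of FL with other strains on the same day and the fit without day 0 replicates 1 to 3 were also added after seeing the data.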

Additional observations from a re-analysis of the deposited data

Results flagged for a closer look

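In 144 groups of 4 FL arrays (named genes by day), 8 arrays lay far from the other 3 by Dixon's test, and chance gives about 1 group in 20. At day 0 these were replicate 4 for Dnajb12 (7.40, the next array 5.06) and for Atf5 (5.92, the next 6.45), and replicate 1 for Nfil3 (4.28, the next 3.32) and Mmp9 (5.86, the next 5.72). At day 7 it was replicate 4 for P2rx4 (7.92, the next 7.28). At day 10 they were replicate 4 for Cyp1a1 (5.75, the next 6.80) and Nupr1 (6.58, the next 7.09) and replicate 2 for Lum (3.69, the next 3.24).

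Responses differed between FL and another strain by limma's test of the difference for the following genes, given as log2 FL response minus the other response with SE. Against F, Dnajb12 differed by 2.62 ± 0.33 for the mean, 2.52 ± 0.38 at day 7 and 2.71 ± 0.38 at day 10, and Asns by -1.18 ± 0.21 for the mean and -1.36 ± 0.25 at day 7. At day 7 Nupr1 (-1.72 ± 0.33), Per2 (-1.16 ± 0.20) and the growth factor carrier Igfbp4 (-0.81 ± 0.16) differed too. Against L, Dnajb12 differed by 2.64 ± 0.33, 2.58 ± 0.38 and 2.70 ± 0.38 for the mean, day 7 and day 10.

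Against LF, Dnajb12 differed by 2.67 ± 0.33, 2.59 ± 0.38 and 2.76 ± 0.38, and Lcn2 by -2.26 ± 0.32, -1.83 ± 0.37 and -2.69 ± 0.37, for the mean, day 7 and day 10. For the mean and day 7, Nupr1 differed by -1.42 ± 0.28 and -1.66 ± 0.33, Ptprq by 1.10 ± 0.18 and 1.31 ± 0.21, and Ndrg1, a stress-responsive gene, by -0.64 ± 0.12 and -0.86 ± 0.14. For the mean and day 10, Acaa2, a fat oxidation enzyme, differed by 0.70 ± 0.15 and 0.87 ± 0.18. For the mean, Asns differed by -1.0 ± 0.21, Lgals2, a galectin, by 1.06 ± 0.22 and Slc5a2, the glucose carrier SGLT2, by 0.84 ± 0.18. At day 7, Cd48, a leukocyte surface protein, differed by 1.09 ± 0.23 and Kcnj3, a potassium channel, by 1.04 ± 0.23. For Dnajb12, Asns and Nupr1, FL day 0 replicates 1 to 3 lay outside the range of the other strains. Against FL day 0 replicate 4 alone these differences were 0.60 to 0.83 for Dnajb12, -0.62 to -0.26 for Asns and -1.24 to -0.94 for Nupr1, and of all the genes above only Lcn2 against LF at day 10 was still called.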

How the results depend on the processing

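Of 49 calls of named genes in a comparison, 40 were kept under the block, quantile normalization, the mean of probe sets and the removal of the dimmest genes. That count leaves out the fit with the spread from the compared groups alone, in which 34 of the 49 calls were lost. With the replicate block the number of calls was 19 at day 7, 4 at day 10 and 1 for day 10 against day 7, and 8 and 11 for FL minus F and FL minus LF at day 7 and 14 for the FL minus LF mean; it changed no other count of calls by over 1.5 times. Quantile normalization gave 8 at day 10, 4 for the FL minus F mean, 2 for FL minus L for the mean and at day 7, and 13 and 10 for FL minus LF at days 7 and 10. The mean of probe sets gave 6 at day 10, and leaving out the dimmest genes 4. The compared groups alone gave 2 for the FL mean, 2 at day 7 and 1 at day 10. For FL minus F they gave 1 for the mean, 1 at day 7 and 0 at day 10, and for FL minus L 0 at both days. The 1 gene for FL minus F at day 7 was not among the 5 called in the main fit. Without FL day 0 replicates 1 to 3, limma called 0 in each comparison of FL with its own day 0 and of responses except 1 for FL minus LF at day 10. In that setting FL day 0 against the other strains gave 10 calls, against 80 with all arrays, and treated FL against the other treated strains 254, against 272.

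Leaving out 1 array at a time gave 5 to 13 calls for the mean, 8 to 15 at day 7, 1 to 9 at day 10 and 0 to 4 for day 10 against day 7. For FL minus F the ranges were 1 to 4, 3 to 9 and 1 to 2 (mean, day 7, day 10), for FL minus L 1 to 3, 1 to 3 and 1 to 2, and for FL minus LF 4 to 11, 5 to 11 and 2 to 5.

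Signs turned in Ace, Agt and Hmox1, none of them called. Ace differed by 0.03 at day 7 after quantile normalization, and Agt by -0.02 at day 10 with the mean of probe sets. Leaving out 1 array gave -0.16 to 0.01 for the mean and -0.22 to 0.07 at day 10 for Ace, -0.20 to 0.01 and -0.08 to 0.13 for Agt, and -0.02 to 0.24 for Hmox1 at day 7. The cause was not tested. Genes near background are limited by signal, which the files give no detection call for.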

Other observations

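Lists of metabolic genes had different medians at day 7 and day 10, with no gene called by limma. Among 25 measured genes of fat oxidation and PPAR targets, 21 were positive at day 10 (median log2 difference 0.22, against 0.02 over all genes) and 8 at day 7 (-0.06, against -0.04). Every day 10 array lay above every day 0 array for Pdk4, the pyruvate dehydrogenase kinase (1.06 ± 0.35, adjusted p = 0.588), and for the enoyl-CoA isomerases Eci1 (0.65 ± 0.20, adjusted p = 0.513) and Eci2 (0.45 ± 0.15, adjusted p = 0.654), as for 1.1% of all genes. Among 14 genes of sterol and fatty acid synthesis 1 was positive at day 7 (median -0.22) and 8 at day 10 (0.08), and among 14 cytochrome P450 genes outside family 1 there was 1 at day 7 (-0.25) and 6 at day 10 (-0.01). After quantile normalization the day 7 medians of the last 2 lists were -0.12 and -0.17.

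Among 13 immediate early genes 12 were positive at day 10 (median 0.33) and 6 at day 7 (-0.03), and 0 were called. Jun, a subunit of AP-1, separated day 10 from day 0, as 1.1% of all genes did upward (0.60 ± 0.17, limma adjusted p = 0.386). The chemokine gene Ccl21 and the TWEAK receptor gene Tnfrsf12a were above day 0 in all 8 treated arrays, as for 0.238% of all genes. They differed by 0.47 ± 0.17 and 0.41 ± 0.11 for the mean and were not called (limma adjusted p = 0.719 and 0.296).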
